A study of Mus musculus and Canis lupus familiaris and Equus caballus with 9 samples.

Results

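Human chromosome 19 carried 274 of the 5260 NRSF peaks in the human peak list. Its peaks were taken by the chromosome name alone, in the hg19 (GRCh37) coordinates of that list. The chromosome itself was picked with earlier results on these data known. The 4 deposited lists of the series held 12075 peaks together. The NRSF protein, whose other name is REST, represses transcription and uses zinc fingers to hold an extended DNA element, the NRSE or RE1. It recruits corepressor complexes that remove active histone marks, and it is best known for keeping neuronal genes silent in cells that are not neurons. Chromosome 19 is known as an unusually gene-rich human chromosome with large tandem arrays of zinc-finger genes, many of them encoding repressors. No hg19 gene annotation and no hg19 genome sequence were used here, so no peak was tied to a gene and no binding element could be read from the sequence under a peak.

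The series measured NRSF by chromatin immunoprecipitation and sequencing in 3 established cell lines, the mouse macrophage line RAW264.7, the dog myelomonocytic leukaemia line ML2 and the horse skin fibroblast line E.Derm (NBL-6). All cells were crosslinked with formaldehyde, and each line gave 2 samples precipitated with 1 NRSF monoclonal antibody and 1 input DNA sample without antibody. None of the 9 samples is human, and no source used here gives the cells, antibody, depth or threshold of the human list. The list holds positions and no signal, so every result below concerns where peaks lie, not how strong they were. Each peak is 400 bp wide. Without replicates for this list, all intervals cover counting error only, unless the spread of bins is named as the error, and they treat peaks as independent. The bins and the tests were also chosen with earlier results on this list known, so no p-value below comes from a blind choice.

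Peaks were denser on chromosome 19 than on the other 21 autosomes together. The density was 4.66 peaks per Mb up to the start of the last peak (95% exact Poisson interval 4.12 to 5.24), against 1.73 per Mb over the other autosomes together, where 4873 peaks lay. The rate ratio was 2.69 (95% interval 2.37 to 3.04, exact conditional binomial test, two-sided, p = 7.72e-44). Chromosome 19 thus held 5.32% of the autosomal peaks and ranked sixth by number, behind 5 longer autosomes, but highest by density. Its lead over chromosomes 20 and 22 was not resolved in every setting.

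Measured up to the last peak, the nearest autosomes in density were chromosomes 20, 17 and 16, with 3.399, 2.78 and 2.76 peaks per Mb. Chromosome 4 had the lowest density, with 179 peaks and 0.937 per Mb. The rate ratio of chromosome 19 to chromosome 4 was 4.97. All 21 pairwise ratios were above 1, and 21 of 21 (100%) passed the exact binomial test after Benjamini-Hochberg adjustment over the pairs. The smallest ratio on this length, to chromosome 20, was 1.37 (95% interval 1.14 to 1.65, adjusted exact p = 0.000565).

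This order depends on the length used, since some autosomes begin with a long stretch without a peak. With no hg19 sequence used, it was not examined whether peaks could be called in such stretches. Up to the last peak they count as length, and their bins count as empty. The first peak of chromosome 19 starts at 0.216 Mb, and that of chromosome 22 at 16.1 Mb. Measured from first to last peak, chromosome 19 had 4.67 peaks per Mb, chromosome 22 came next with 3.81, and chromosome 20 had 3.43. The ratio to chromosome 22 was then 1.23 and did not pass (95% interval 0.994 to 1.52, adjusted exact p = 0.0578). The other 20 of 21 pairs (95.2%) passed on this length, chromosome 20 with a ratio of 1.36 (adjusted exact p = 0.000827).

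Bin counts varied more along the chromosomes than independent peaks at an even rate would give, which makes these counting intervals too narrow. The variance of 1 Mb bin counts was 4.31 times their mean on chromosome 19. It was 2.76 times over the bins of the other autosomes pooled, which includes differences between them, and 1.80 to 3.59 times on single other autosomes. Widened by this spread of bins, the ratio of 2.69 to the other autosomes had a 95% interval of 2.10 to 3.46 (quasi-Poisson). In the same test 20 of 21 pairs (95.2%) passed after adjustment. The exception was chromosome 20, for which the interval of 0.962 to 1.95 included equal density, so the order of these 2 chromosomes was not resolved beyond the spread along them. From first to last peak 19 of 21 pairs (90.5%) passed by the spread of bins, with intervals of 0.882 to 1.71 for chromosome 22 and 0.956 to 1.94 for chromosome 20.

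**Figure D1:**
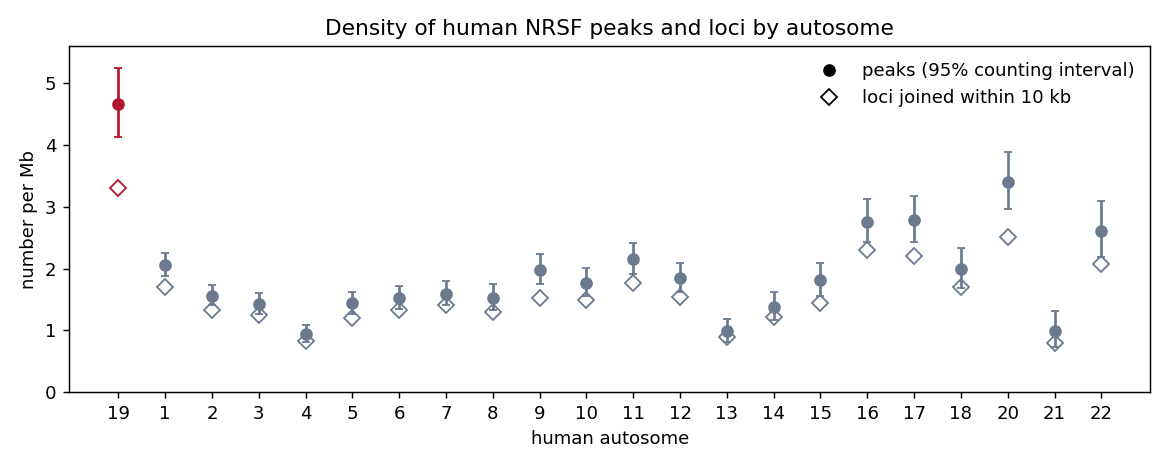
Number of NRSF peaks per Mb (filled circles, with 95% exact Poisson intervals) and of loci per Mb (open diamonds, peaks joined where consecutive starts lay within 10 kb) for each human autosome, chromosome 19 at the left in red. With length taken up to the last peak, chromosome 19 stands highest in both measures. It has 4.66 peaks and 3.30 loci per Mb, followed by chromosome 20 at 3.399 peaks and 2.51 loci per Mb.

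Close groups of peaks made up part of the density, and joining them left chromosome 19 highest on the length up to the last peak. With peaks joined where consecutive starts lay within 10 kb, the 274 peaks formed 194 loci, or 3.30 per Mb, against 1.45 loci per Mb on the other autosomes. The ratio of loci was 2.28 (95% interval 1.96 to 2.63, exact binomial test, p = 1.79e-23). Against chromosome 20 the ratio of loci was 1.31 (95% interval 1.06 to 1.63, adjusted exact p = 0.0121).

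Peaks covered chromosome 19 from near one end to the other, apart from its middle. The first peak lay at 216475 to 216875 and the last at 58829840 to 58830240. The longest stretch without a peak ran from the peak at 22228575 to 22228975 to the peak at 28735875 to 28736275, a gap of 6.51 Mb between starts and 30.3 times the mean gap of the chromosome. No centromere position was used here, so the middle of this gap, at 25.5 Mb, served to divide the chromosome into a p side and a q side.

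The peak at 22228575 stood alone. On its lower side the second longest gap, 2.90 Mb, separated it from the peak at 19325755 to 19326155, so that the 8 Mb from 20 to 28 Mb held 1 peak. The third longest gap, 2.36 Mb, lay on the q side, between the peaks at 36564380 to 36564780 and 38924105 to 38924505. It followed directly on a bin with 12 peaks, so that one of the barest and one of the fullest stretches of the chromosome were neighbours.

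No difference in overall density between the sides was detectable. The q side held 161 peaks, 4.83 per Mb, and the p side 113 peaks, 4.43 per Mb. The ratio of q to p was 1.09 (95% interval 0.851 to 1.397, exact binomial test, two-sided, p = 0.503). An interval from the spread of bins ran from 0.675 to 1.76 (quasi-Poisson), so a difference of that size in either direction remained possible. The sign of the difference rested on the fullest bin, since without it the q side had 4.33 and the p side 4.43 peaks per Mb.

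How evenly the peaks were laid out is described for both sides, with no test. On the q side, from 28 Mb up, the 31 bins of 1 Mb had a median of 4 peaks and a variance 4.92 times the mean. On the p side, below 20 Mb, all 20 bins held at least 2 peaks, with a median of 5 and a variance 1.91 times the mean. On the q side 15 of 31 bins held 3 peaks or fewer, of which 2 were empty, against 5 of 20 bins with 3 or fewer on the p side. All these values leave out the bare stretch from 20 to 28 Mb, most of which lies on the p side. With the bins of the middle included, the variance was 5.38 times the mean on the q side and 2.95 times on the p side. The more even layout of the p side thus rests in part on these limits.

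Along the chromosome, the first 4 stretches of 5 Mb held 26, 24, 27 and 35 peaks. The next 2, which take in the middle gap, held 1 and 7. From 30 Mb up, the stretches held 9, 17, 36, 28, 27 and 37 peaks. The last stretch, which ends with the last peak, thus held the most of the 12, just ahead of the one from 40 to 45 Mb that contains the fullest bin.

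**Figure D2:**
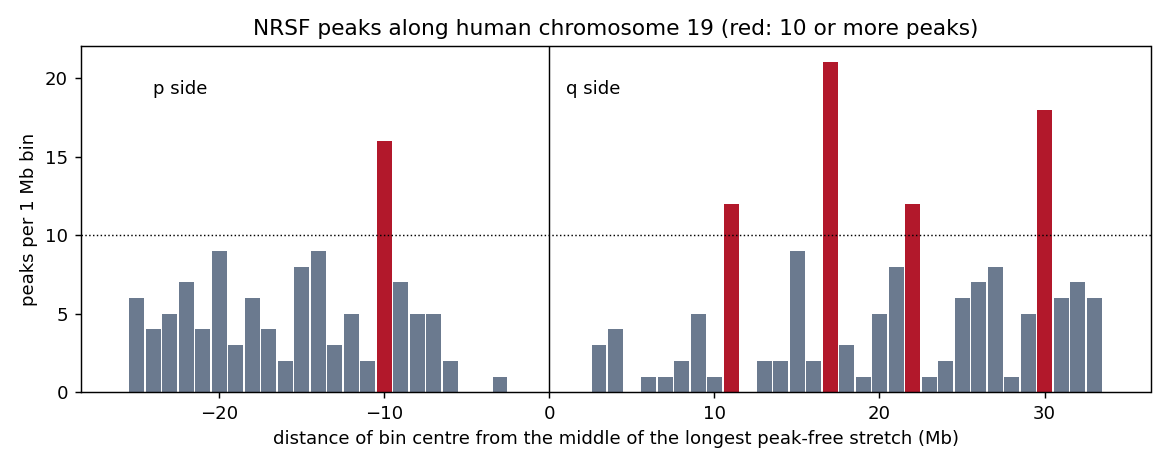
Number of NRSF peaks in each 1 Mb bin of human chromosome 19 against the distance of the bin centre from the middle of the longest gap between peaks, with the p side at negative and the q side at positive distances. Red bars are the 5 bins with 10 or more peaks (dotted line), 4 on the q side and 1 on the p side, and the empty centre holds the gap of 6.51 Mb.

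A larger share of bins was full of peaks on chromosome 19 than on the other autosomes together. A bin of 1 Mb with 10 or more peaks is called dense here. A higher density by itself raises the share of bins above such a fixed limit, so this result is not separate from the density. Over all 22 autosomes 1.21% of bins were dense. On chromosome 19 it was 5 of 59 bins (8.47%), against 30 of 2824 bins on the other autosomes (1.06%, odds ratio 8.60, 95% interval 2.51 to 23.6; two-sided Fisher's exact test, p = 0.000613). These 5 bins held 79 peaks, 28.8% of those on the chromosome, whereas 7.53% of the peaks of the other autosomes lay in dense bins. Against chromosomes 20, 17 and 16 alone, 5 of 59 bins stood beside 7 of 235 (2.98%), and the odds ratio of 3.001 did not pass (95% interval 0.722 to 11.5, exact p = 0.0693). With chromosome 22 added, which had no dense bin, it was 7 of 287 bins (2.44%), and the odds ratio was 3.68 (exact p = 0.0369, although the 95% interval of 0.888 to 14.1 includes 1). A higher frequency than on the next densest chromosomes was thus not clearly shown.

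The 5 dense bins of chromosome 19 lay at 15 to 16 Mb with 16 peaks, at 36 to 37 Mb with 12, at 42 to 43 Mb with 21, at 47 to 48 Mb with 12 and at 55 to 56 Mb with 18. The bins of 21 and 18 peaks were the fullest of all 35 dense bins on the autosomes. The next were 17 peaks on chromosome 20 from 44 to 45 Mb and 17 on chromosome 1 from 11 to 12 Mb. Just below the limit, chromosome 19 had 3 bins of 9 peaks and 3 bins of 8, and its lowest dense bin held 12. No 2 dense bins of chromosome 19 were adjacent. The bins on either side of the fullest held 2 and 3 peaks, and those on either side of the 36 to 37 Mb bin held 1 and 0.

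Relative to the density of its chromosome the fullest bin had a lower value than on most other autosomes. Its 21 peaks were 4.51 times the mean number per Mb of chromosome 19. On the other autosomes the fullest bin was 3.45 to 10.4 times the mean of its own chromosome, with a median of 6.40, and 18 of the 21 had a higher value than chromosome 19. These ratios are a description of each chromosome's single fullest bin.

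The bin from 42 to 43 Mb was made of many separate places rather than of 1 compact cluster. Its 21 peaks ran over 747 kb from 42071030 to 42818865 and formed 11 loci when joined within 10 kb. The bin opened with single peaks starting at 42071030 and 42094870. A looser pair followed at 42123305 and 42125525, with starts 2220 bp apart. Pairs at 42200240 and 42200885 and at 42209385 and 42210525 had starts 645 and 1140 bp apart and were themselves 8500 bp from each other. Further on, single peaks began at 42317485, 42558380 and 42619315.

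A trio between the first and second of those 3 single peaks began at 42499955, 42501255 and 42502645, with steps of 1300 and 1390 bp, after the longest gap of the bin, 182 kb. Pairs at 42644295 and 42644930 and at 42647515 and 42648290 had steps of 635 and 775 bp and lay 2585 bp apart. A single peak began at 42677820, and the bin closed with a pair at 42817755 and 42818465, 710 bp apart. In all, 13 of the 21 peaks had another start within 2 kb, in 5 pairs and 1 trio, and 8 did not.

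The bin from 55 to 56 Mb was the most grouped of the 5. Of its 18 peaks 13 had a start within 2 kb, in 2 pairs and 3 trios, and its median gap was 2.82 kb, against 16.2 to 51.1 kb in the other 4 dense bins. The trios began at 55195045, 55690535 and 55727775 and spanned 1925, 1770 and 1740 bp from the first start to the last end. The trios at 55690535 and 55727775 belonged to a stretch of 8 peaks within 100 kb. A gap of 381 kb, the longest of the bin, separated the first of the 3 trios from the peak at 55577455.

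The bin from 15 to 16 Mb, the only dense bin of the p side, also had 8 peaks within 100 kb, from the start at 15734520. Those 8 were 2 pairs and 4 single peaks. In the whole bin 9 of 16 peaks had no neighbour within 2 kb, beside the 2 pairs and 1 trio, which lay at 15125385 to 15127180. A gap of 459 kb divided the bin. The bins from 36 to 37 Mb and from 47 to 48 Mb held 12 peaks each in 8 loci. In the bin from 36 to 37 Mb 4 peaks, and in the bin from 47 to 48 Mb 5 peaks, had a neighbour within 2 kb, the latter bin with a trio at 47939895 to 47941690.

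**Figure D3:**
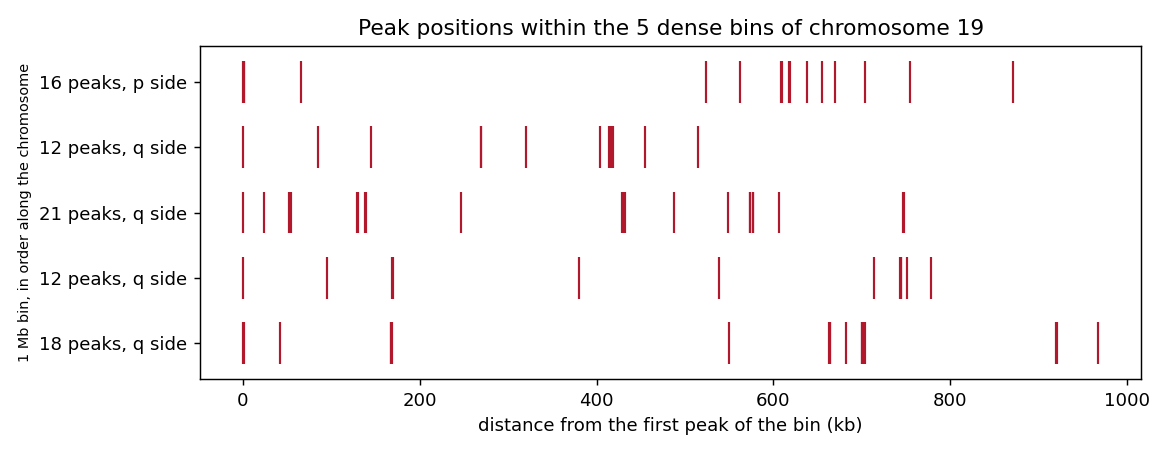
Start of each NRSF peak (vertical line) within the 5 dense bins of chromosome 19, in order along the chromosome from top to bottom, as the distance in kb from the first peak of the bin. Lines that merge are peaks within about 2 kb of each other. The bins span 514 to 968 kb from first to last start, and the bin with 18 peaks has 13 of them in pairs and trios.

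Gaps between consecutive peaks were shorter on chromosome 19 than on each other autosome, by the median. The median gap between starts was 55.4 kb, against 133 kb on chromosome 20, the next lowest, and 216 kb over all gaps of the other autosomes. The quartiles on chromosome 19 were 6.23 and 227 kb. Of its 273 gaps 39 were at most 1 kb (14.3%, against 10.0% on the other autosomes), and 8 were longer than 1 Mb (2.93%, against 16.3%). A higher density shortens gaps by itself, so gaps were also divided by the mean gap of their own chromosome, which was 215 kb on chromosome 19.

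On that relative scale the comparison depended on the limit. Gaps of at most 0.2% of the chromosome mean were absent from chromosome 19, whose shortest gap of 490 bp is above that limit, against 9.54% on the other autosomes. On chromosome 19 that limit is also below 455 bp, the shortest gap on the other autosomes. The absence thus follows from the floor on gap length and does not compare spacing. That floor is a larger part of the mean gap on chromosome 19, whose mean gap is the shortest. Limits just above the floor are thus not a like comparison either. Up to 0.4% of the mean it was 12.8 and 13.1%. Above that limit chromosome 19 had more until the long gaps, with 19.8 and 14.9% up to 1%. Gaps under 10% of the chromosome mean made up 35.9% on chromosome 19, against 19.1 to 33.8% on single other autosomes, the highest of them chromosome 9. The median gap was 0.258 of the mean on chromosome 19 and 0.312 to 0.528 of it on the others. The standard deviation of the gaps was 2.40 times their mean, which 3 other autosomes exceeded, with chromosome 16 highest at 3.15. Without the longest gap of each chromosome it was 1.81 on chromosome 19, below chromosomes 1 and 9 with 2.01 and 1.84, and 1.75 on chromosome 16. None of the relative values was tested.

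**Figure D4:**
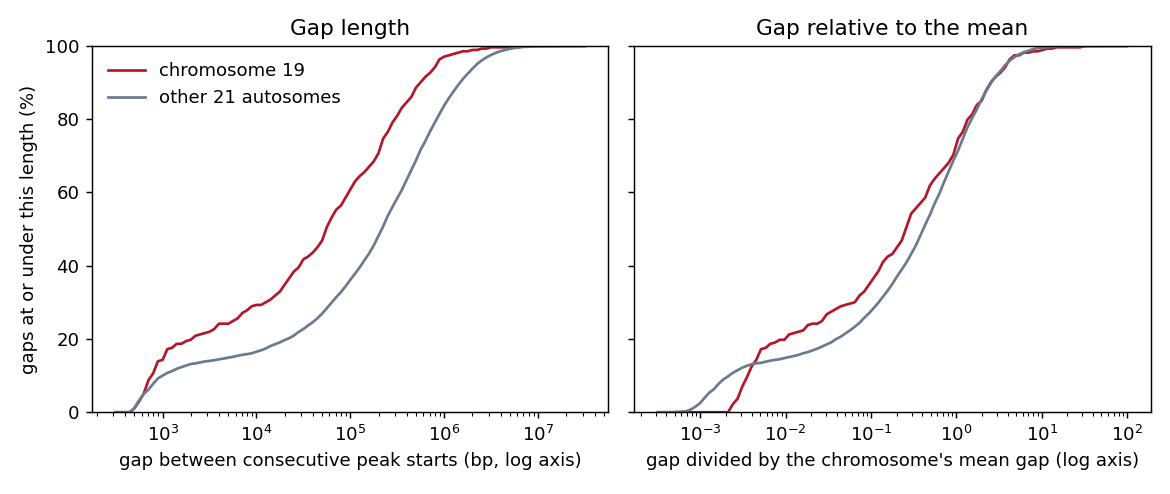
Share of gaps between consecutive peak starts at or under a given length, on log horizontal axes, for chromosome 19 (red, 273 gaps) and the other 21 autosomes (grey, 4852 gaps), in bp at the left and divided by the mean gap of the chromosome at the right. In bp the chromosome 19 curve lies above the other from about 631 bp on (medians 55.4 and 216 kb). Relative to the mean gap it lies below the other up to about 0.4% of the mean, then above it, and joins it at long gaps. The floor on gap length is a larger part of the mean gap on chromosome 19, so the shortest relative gaps are not a like comparison.

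Peaks of chromosome 19 had a close neighbour more often than peaks of the other autosomes together. Over all 22 autosomes 24.3% of peaks had another start within 2 kb. On chromosome 19 it was 97 of 274 (35.4%, exact 95% interval 29.7 to 41.4%), against 1154 of 4873 on the other autosomes (23.7%, odds ratio 1.77, 95% interval 1.35 to 2.30; two-sided Fisher's exact test, p = 2.41e-05). Both peaks of a pair count, so this test treats shared neighbours as independent. Counted once per gap, 54 of 273 gaps were at most 2 kb on chromosome 19 (19.8%), against 639 of 4852 on the other autosomes (13.2%, odds ratio 1.63, exact p = 0.00343).

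Dense bins are defined by many peaks, so the choice of bins to leave out is not independent of close neighbours. On chromosome 19 peaks with a neighbour within 2 kb ranged from 4 of 12 to 13 of 18 among these bins. Without the peaks of dense bins on every autosome, 55 of 195 peaks of chromosome 19 had a neighbour within 2 kb (28.2%), against 994 of 4506 (22.1%). The odds ratio was then 1.39 and did not pass (95% interval 0.989 to 1.93, Fisher's exact test, p = 0.0528). With a reach of 1% of each chromosome's mean gap in place of 2 kb, 35.4% of peaks on chromosome 19 had a neighbour, against 26.5% on the other autosomes, and the odds ratio of 1.52 passed (exact p = 0.00159).

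Chromosome 19 was also set beside chromosomes 20, 17, 16 and 22, which were among the nearest in density by either length, with Fisher's exact test adjusted over the 4 pairs. Of these, chromosome 16 alone had a share that differed in the test, with 23.3% of peaks (odds ratio 1.80, 95% interval 1.21 to 2.70, adjusted exact p = 0.0117). Chromosome 20 had 32.2%, and the difference was not detectable (odds ratio 1.15, 95% interval 0.775 to 1.71, adjusted exact p = 0.501). Chromosome 22 had 29.3% (odds ratio 1.32, 95% interval 0.827 to 2.13, adjusted exact p = 0.35) and chromosome 17 had 27.7% (odds ratio 1.43, 95% interval 0.959 to 2.14, adjusted exact p = 0.135), and neither difference passed.

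The share of chromosome 19 was above that of the other autosomes pooled at each reach, with 25.5 and 18.7% within 1 kb, 41.6 and 26.4% within 5 kb and 47.8 and 28.9% within 10 kb. Against chromosome 20 alone it was lower within 1 kb, with 25.5 and 27.1%, and higher at the longer reaches.

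**Figure D5:**
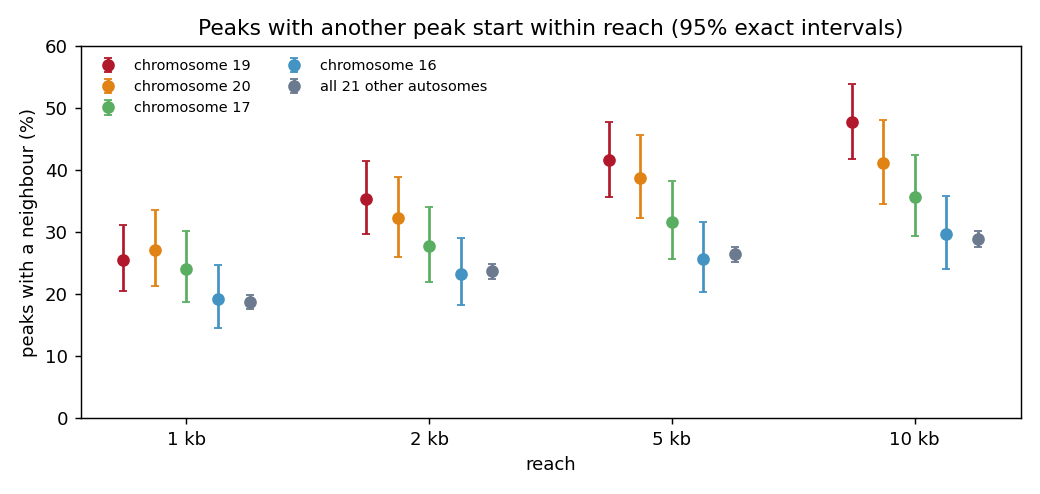
Share of peaks with another peak start within 1, 2, 5 or 10 kb, with exact 95% binomial intervals, for chromosome 19 (red), chromosomes 20, 17 and 16, and all 21 other autosomes (grey). Chromosome 19 runs from 25.5% within 1 kb to 47.8% within 10 kb, and its intervals overlap those of chromosome 20 at every reach.

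Close peaks came mostly in pairs. Joined within 2 kb, the peaks of chromosome 19 formed 220 groups, of which 177 were single peaks, 33 pairs, 9 trios and 1 a group of 4. Pairs were 15.0% and trios 4.09% of the groups, against 9.68 and 2.13% on the other autosomes. The group of 4 lay at 52055305 to 52057730, in a span of 2425 bp. The last 3 peaks of the chromosome were themselves a trio, at 58828225 to 58830240. Of the 10 groups of 3 or 4 peaks, 8 lay on the q side, which held 58.8% of the peaks, and 2 on the p side. With so few groups, this split was not tested. The share of peaks with a neighbour within 2 kb was 35.4% on both sides (57 of 161 and 40 of 113).

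Distances within close pairs were bounded by the limit of 2 kb and, as no peaks overlapped, by the peak width of 400 bp. The 54 gaps of at most 2 kb on chromosome 19 had a median of 773 bp with quartiles of 631 and 1005 bp. Of them 48 (88.9%) were at most 1.2 kb. On the other autosomes such gaps had a median of 720 bp with quartiles of 565 and 978 bp, and 84.2% were at most 1.2 kb. The 3 closest pairs of chromosome 19 all had starts 490 bp apart, which leaves 90 bp between the peaks. They lay at 10805965 to 10806855, at 40136455 to 40137345 and at 52055955 to 52056845, the last 2 of them inside a trio and the group of 4. The shortest gap on the other autosomes was 455 bp, so no peaks overlapped on either.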

How the data were processed

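The 4 peak lists deposited by the authors hold start and end positions, with no score. All peaks are 400 bp wide, and human starts step by 5 bp. Per the submitters' processing notes, Bowtie 0.12.8 and MACS 1.4.2 were among the tools (their roles are not stated) and hg19 among the builds. No source used here gives the peak threshold, the depth or any joining of lists, and each can change how many peaks and close pairs a list holds. Positions are as in the list, with 1 bp of uncertainty over whether they count from 0 or 1.

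Density is peaks divided by the start of the last peak. Bins of 1 Mb run from 0 to the last peak. A gap is the distance between consecutive starts. Densities were compared by exact conditional binomial tests and by a quasi-Poisson test with the variance over mean of bins, shares by Fisher's exact test with conditional odds ratios. Tests were two-sided with a threshold of 0.05. Chromosomes X and Y were left out. Peaks and bins were named by rule: first and last peak, flanks of the 3 longest gaps, the 3 closest pairs, the dense bins and all starts of the fullest one. Other positions, such as groups of 3 or 4 peaks, were chosen after their values were seen. Chromosome 19, the bins and the tests were chosen with earlier results on these data known. Counting functions were tested on simulated data. Python 3.11.15, numpy 2.4.6, scipy 1.17.1 and matplotlib 3.10.9 were used.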

Additional observations from a re-analysis of the deposited data

How the results depend on the processing

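Of 26 alternatives, 10 of them chosen after the data were seen, 22 kept the direction and the side of the threshold. The density ratio of chromosome 19 to the other autosomes ranged from 2.02 (per occupied 1 Mb bin) to 2.75 over its 7 alternatives and passed in each. The ratio of q to p, which did not pass in any setting, changed sides to 0.843 without dense bins (exact p = 0.25) and to 0.976 without the fullest bin (exact p = 0.85). The odds ratio for dense bins ranged from 3.001 to 14.4 over 6 alternatives and did not pass against the 3 densest other autosomes (3.001, exact p = 0.0693). With loci in place of peaks, 2 of 59 bins were dense against 9 of 2824 (odds ratio 10.9, exact p = 0.0201). The odds ratio for close neighbours ranged from 1.39 to 2.25 over 8 alternatives and did not pass without dense bins (1.39, exact p = 0.0528). Fewer peaks enter that setting, and the choice of dense bins is not independent of close neighbours. No paired analysis was possible because the human list belongs to no sample and has no replicates. For the same reason no replicate could be left out. Depth, threshold and cell source of the list are unknown, which limits every density to this list.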

Other observations

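Human peak starts lie on a grid of 5 bp, and in all 4 lists most starts end in the digit 5. On chromosome 19 it was 207 of 274 starts (75.5%), against 79.3% on the other human autosomes. The mouse, dog and horse lists had 80.3, 82.1 and 83.0%. No test was made of these shares.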
